A study of Homo sapiens with 18 samples.

Results

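Collagens and laminins are the structural proteins of the extracellular matrix, and the expression of their chain genes was described in 18 RNA-seq libraries of 2 established human pancreatic ductal adenocarcinoma cell lines. Every gene row with a symbol of a numbered collagen alpha chain (COL, number, A, number) or of a laminin alpha, beta or gamma chain (LAMA, LAMB or LAMC and a number) was taken. This gave 56 of 26249 genes, made up of 44 collagen and 12 laminin chains. A chain was counted as expressed in a line when its mean over the 9 libraries of that line was at least 1 FPKM (fragments per length of transcript, on a scale set across libraries). The lines were PATU-8902 and PATU-8988T. DCLK1-IN-1 is a small molecule that inhibits DCLK1, a kinase of the doublecortin family. Each line had 3 libraries after 24 h of 2.5 µM DCLK1-IN-1, 3 after 6 h of the same dose and 3 after 24 h of the vehicle DMSO. The series describes the replicates as biological, and no group received DMSO for 6 h. Both lines were grown in the same medium with serum as monocultures, so each is a tumour cell model without stroma, and each is a single line.

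A laminin is a cross-shaped trimer of 1 alpha, 1 beta and 1 gamma chain, and it polymerises or anchors beneath epithelial cells in the basement membrane. LAMA3 and LAMB3 encode the alpha and the beta chain of laminin-332, which binds integrin α6β4 in hemidesmosomes, where the transmembrane collagen COL17A1 also sits. LAMC1 is the gamma chain shared by most other laminins, which carry LAMB1 or LAMB2. Collagens are triple helices. Type IV collagen forms the network of basement membranes, the fibrillar collagens form interstitial fibres that in pancreatic tumours are deposited mainly by fibroblasts, and fibril-associated collagens such as COL12A1 decorate those fibres.

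LAMA3 and LAMB3 were at high levels in PATU-8902, and COL12A1 with LAMC1 led in PATU-8988T, so the sequence upstream of the gene start is shown for genes of those sets and for COL17A1. The windows hold the 250 bases before the annotated start, read 5′ to 3′ on the strand of the gene, from the RefSeq promoter table of GRCh38.p14, a later build than that used for the deposited values. Capitals mark matches to TGANTCA, the site of AP-1 transcription factors, which reads the same pattern on both strands. A match is a description of letters and was not tested as a binding site. The LAMA3 window (chr18:23872770-23873019, plus strand) lies within the gene at the start of its shorter transcripts and held 2 matches, which begin at -125 and -69 from the start. The LAMB3 window shown (chr1:209651375-209651624, minus strand) held 1 match, which begins at -67, and the other 2 of 3 LAMB3 windows held none. The windows of COL17A1 (chr10:104085881-104086130, minus strand) and COL12A1 (chr6:75206054-75206303, minus strand) held none. The LAMC1 window, which is not shown, held none either. Of 13 windows of the 10 expressed genes in the table, 2 held a match, against 6.57% of all 35116 windows of that length.
LAMA3: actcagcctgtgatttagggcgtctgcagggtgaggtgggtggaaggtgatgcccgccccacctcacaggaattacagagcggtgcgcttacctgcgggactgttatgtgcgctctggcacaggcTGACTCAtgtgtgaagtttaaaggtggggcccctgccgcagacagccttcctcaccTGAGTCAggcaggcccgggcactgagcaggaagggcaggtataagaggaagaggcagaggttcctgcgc
LAMB3: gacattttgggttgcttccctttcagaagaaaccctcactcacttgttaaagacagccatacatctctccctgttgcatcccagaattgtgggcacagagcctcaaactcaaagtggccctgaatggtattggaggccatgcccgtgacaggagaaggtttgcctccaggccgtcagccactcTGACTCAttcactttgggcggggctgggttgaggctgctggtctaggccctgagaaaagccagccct
COL17A1: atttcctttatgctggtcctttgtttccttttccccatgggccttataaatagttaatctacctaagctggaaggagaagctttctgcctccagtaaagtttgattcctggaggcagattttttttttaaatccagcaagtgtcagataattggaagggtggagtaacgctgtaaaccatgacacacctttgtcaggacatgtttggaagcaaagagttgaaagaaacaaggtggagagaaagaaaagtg
COL12A1: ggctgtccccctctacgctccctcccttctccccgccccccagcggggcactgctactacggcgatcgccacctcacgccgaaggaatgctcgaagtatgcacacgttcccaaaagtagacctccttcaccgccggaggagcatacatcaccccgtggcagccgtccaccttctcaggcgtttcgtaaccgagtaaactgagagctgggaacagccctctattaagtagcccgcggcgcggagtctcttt

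Libraries of a group differed in overall level, and this touches every comparison. The median FPKM of the 11477 tested genes ranged from 6.12 to 17.4 between libraries, and in PATU-8988T DMSO it was 6.12 in replicate 1 and 12.1 in replicate 2. Tests therefore used limma on log2(FPKM + 1), once on values as deposited and once relative to the library median. The second scale removes the whole shift of a library, also where that shift is a real difference in RNA level. Relative to the library median, the spread of a chain within a group was smaller in 53 of 66 pairs of chain and group, and its median range was 0.18 on the log2 scale against 0.49 as deposited. In each library 6993 to 7062 rows shared 1 low value near 0.1 FPKM, some rows lay below it, and levels near it are not read as expression. Read counts were not part of the table, and sequencing depth is therefore unknown.

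Of the 56 chains, 11 were expressed in PATU-8902 and 10 in PATU-8988T. Both lines expressed 9 chains, among them COL6A1, COL18A1, LAMA3, LAMA5, LAMB1, LAMB2, LAMB3 and LAMC1. COL17A1 and COL27A1 reached the threshold in PATU-8902 and COL12A1 reached it in PATU-8988T. The other 44 chains, 39 collagens and 5 laminins, were below the threshold in both lines, and 21 chains never exceeded 0.15 FPKM in a library. Just inside the threshold was COL27A1 in PATU-8902 with a mean of 1.03 FPKM, and just outside were COL5A1 in PATU-8988T with 0.927 FPKM and COL12A1 in PATU-8902 with 0.824 FPKM.

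**Figure D1:**
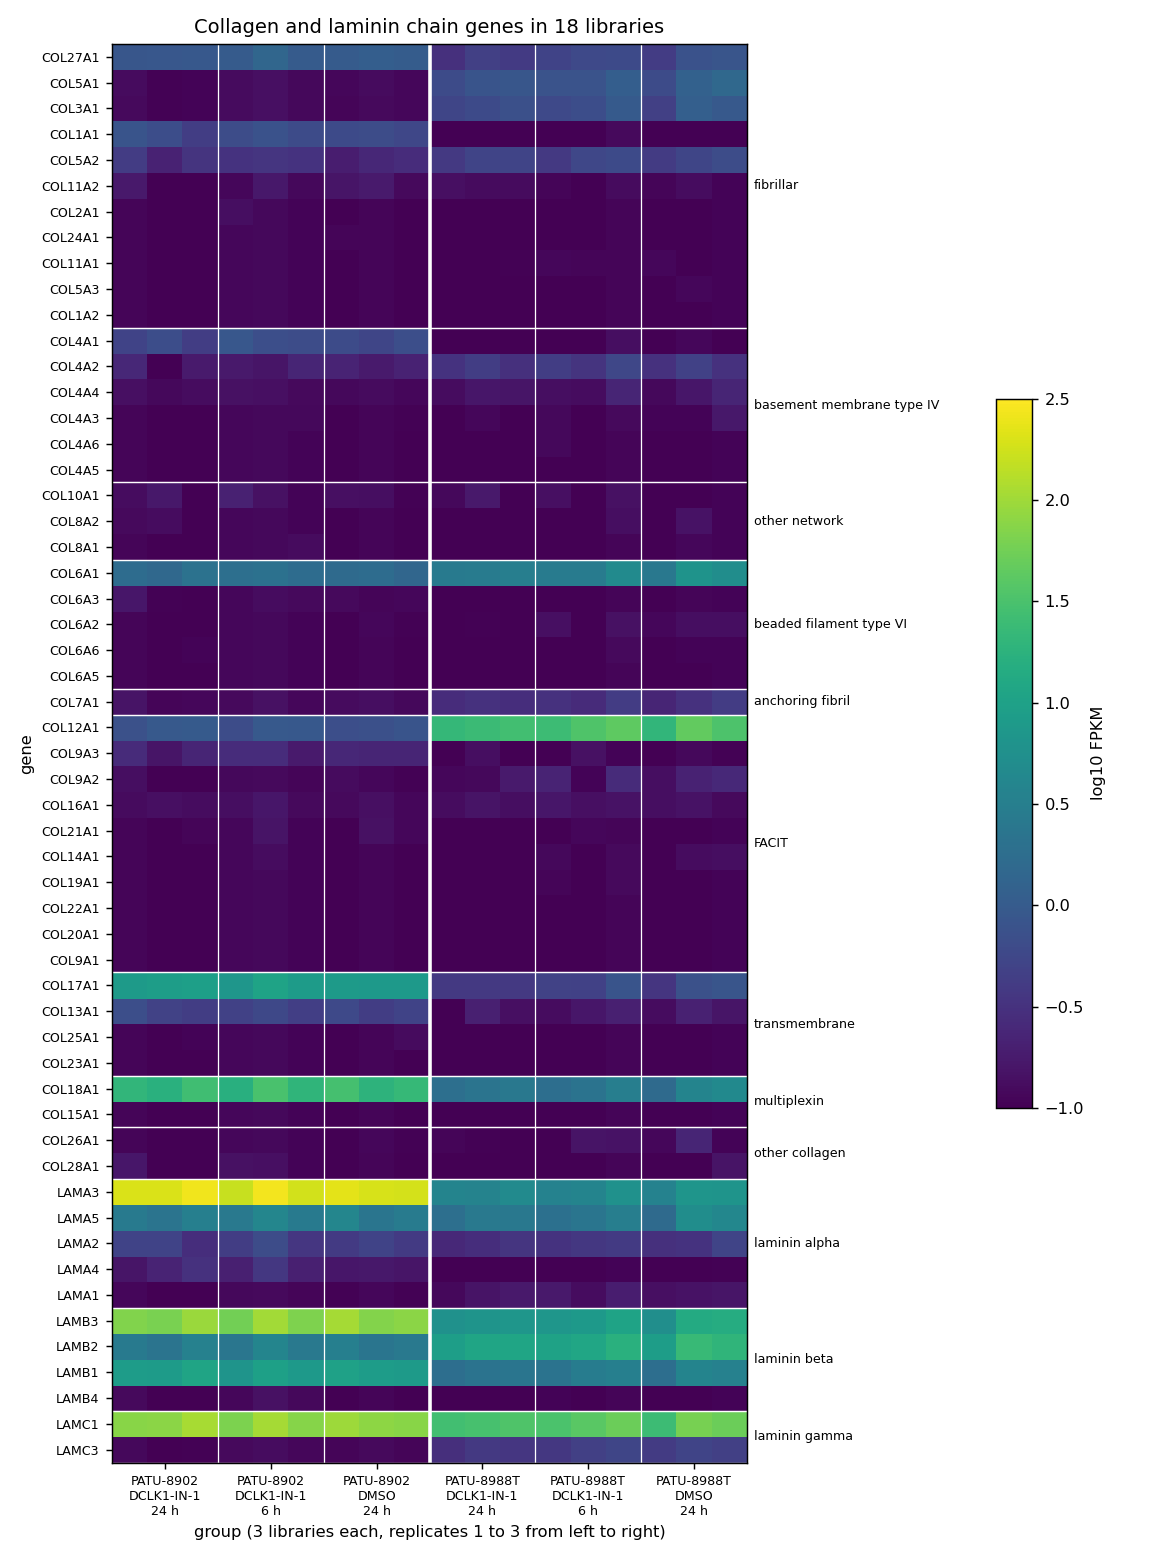
Heat map of log10 FPKM for 55 collagen and laminin chain genes (rows, grouped by structural class) in the 18 libraries (columns, 3 per group). Most collagen rows are dark in both lines, the rows LAMA3, LAMB3 and LAMC1 are bright in PATU-8902, and COL12A1 is bright in PATU-8988T, where it had a mean of 30.6 FPKM.

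Fibrillar and network collagens were at low levels in both lines. Of 11 fibrillar chains, 1 was expressed, COL27A1, and the highest value of any fibrillar chain in a library was 1.51 FPKM. COL1A1, a chain of type I collagen, had a mean of 0.639 FPKM in PATU-8902 and 0.0950 FPKM in PATU-8988T, and its partner chain COL1A2 was at the low value shared by many rows in all 18 libraries. COL5A1 and COL3A1 lay the other way, with means of 0.120 and 0.119 FPKM in PATU-8902 and of 0.927 and 0.741 FPKM in PATU-8988T. None of the 6 type IV chains was expressed. COL4A1 had a mean of 0.636 FPKM in PATU-8902 and 0.0967 FPKM in PATU-8988T, whereas COL4A2, its partner in the common type IV trimer, had 0.190 FPKM in PATU-8902 and 0.389 FPKM in PATU-8988T. COL7A1, which forms the anchoring fibrils below hemidesmosomes, had means of 0.127 FPKM in PATU-8902 and 0.316 FPKM in PATU-8988T.

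When the filter on low values was dropped, 22 of the 56 chains passed between the lines in DMSO, where 29.0% of all genes passed, and 12 of the chains were higher in PATU-8902 and 10 lower. Over all conditions 42 passed, where 77.3% of all genes passed. Of the 56 chains, 6 lay at the shared low value in all 18 libraries. That value had a mean of 0.107 FPKM in PATU-8902 and 0.0945 FPKM in PATU-8988T. The counts without the filter can therefore include differences of the low value itself, and they are not read as counts of expressed chains. In DMSO COL4A1 and COL1A1 were among the higher ones, at log2 differences of 0.56 ± 0.05 and 0.54 ± 0.06 (limma adjusted p = 1.08e-06 and 5.12e-06), as was the transmembrane collagen COL13A1 at 0.37 ± 0.06. The libraries of the lines did not overlap for these 3 chains. The share of all genes without overlap is not given here, so a lack of overlap is not read as particular to the chains. COL5A1, COL3A1 and LAMC3 were lower, at -0.90 ± 0.12, -0.71 ± 0.11 and -0.39 ± 0.04 (limma adjusted p = 1.94e-05, 8.70e-05 and 7.46e-07), and for them the lines did not overlap either. For COL4A1, COL1A1, COL5A1, COL3A1 and LAMC3 the lower line lay near the shared low value, which itself differed between libraries, and its part in these calls was not tested.

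LAMA3 and LAMB3, the alpha and the beta chain of laminin-332, were far higher in PATU-8902. LAMA3 ran from 159 through a median of 198 to 276 FPKM in the PATU-8902 libraries, and from 3.53 through 3.85 to 6.76 FPKM in the PATU-8988T libraries. LAMB3 ran from 56.8 through 70.4 to 106 FPKM in PATU-8902 and from 5.42 through 6.83 to 14.7 FPKM in PATU-8988T. For both genes every PATU-8902 library was above every PATU-8988T library, and how many of all genes share this is not given here. In bulk RNA, fewer expressing cells and less RNA per cell cannot be told apart. By mean FPKM the excess in PATU-8902 was 45.0-fold for LAMA3 and 9.03-fold for LAMB3.

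In DMSO alone the log2 difference, PATU-8902 minus PATU-8988T, was 5.01 ± 0.26 for LAMA3 (SE; limma adjusted p = 5.98e-12), and it was 4.51 relative to the library median. For LAMB3 it was 2.88 ± 0.31 (limma adjusted p = 2.52e-07), and 2.38 relative to the library median. Among the 11477 genes tested, LAMA3 ranked 81 from the most PATU-8902-high end. Other chains with a call lay in both directions. COL17A1, COL18A1, LAMB1 and LAMC1 were higher in PATU-8902, and COL12A1, LAMB2 and COL6A1 were lower.

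Of the tested chains, 10 of 11 passed the test between the lines in DMSO, 7 of them higher in PATU-8902 and 3 lower, where 54.2% of all tested genes passed, 41.8% as higher and 12.4% as lower. Relative to the library median the split was 7 higher and 4 lower, with LAMA5 added, where 72.2% of all genes passed, 34.4% as higher and 37.8% as lower. Between the 2 scales the median gene shifted, since it lay 0.45 higher in PATU-8902 on the log2 scale as deposited. Standard errors also differed, and that of LAMA3 was 0.26 as deposited and 0.06 relative to the library median. The part of each in the 2 splits over all genes was not tested. The median difference of the 11 chains was 1.33 as deposited and 0.83 relative to the library median, and over all genes these medians were 0.45 and -0.05. The mean of the line differences over the 3 conditions gave the same split, 7 higher and 3 lower, where 77.2% of all genes passed, 62.9% as higher and 14.3% as lower. COL12A1 and COL17A1 entered the test only through the line in which they were high, and their calls are part of these counts with that limit. As deposited, DMSO replicate 1 of each line bore on the LAMC1 call. The LAMC1 difference was 0.84 on the log2 scale without that of PATU-8902 (limma adjusted p = 0.0513) and 0.57 without that of PATU-8988T (limma adjusted p = 0.0740). Relative to the library median it was 0.44 with all libraries (limma adjusted p = 1.12e-04). On that scale it was 0.32 without the PATU-8988T library (limma adjusted p = 6.72e-05).

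LAMC1 and the other beta and alpha chains were less unequal. LAMC1 ran from 64.0 through 78.2 to 111 FPKM in PATU-8902 and from 25.5 through 34.6 to 61.3 FPKM in PATU-8988T, with a log2 difference in DMSO of 0.94 ± 0.30 (limma adjusted p = 0.0124). It was the laminin chain with the highest level in PATU-8988T. LAMB1 ran from 6.52 through 8.57 to 11 FPKM in PATU-8902 and from 1.85 through 2.28 to 3.84 FPKM in PATU-8988T. LAMB2 lay the other way, from 2.20 through 2.61 to 3.89 FPKM in PATU-8902 and from 9.0 through 11.5 to 23.0 FPKM in PATU-8988T. Neither beta chain overlapped between the lines, and the share of all genes without overlap is not given here. LAMA5, the alpha chain of the laminins that most adult epithelia use beside laminin-332, had means of 2.97 FPKM in PATU-8902 and 2.82 FPKM in PATU-8988T and was the only expressed chain whose libraries overlapped between the lines. Its difference in DMSO was -0.12 ± 0.26 as deposited (limma adjusted p = 0.732) and -0.62 relative to the library median (limma adjusted p = 2.54e-04).

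**Figure D2:**
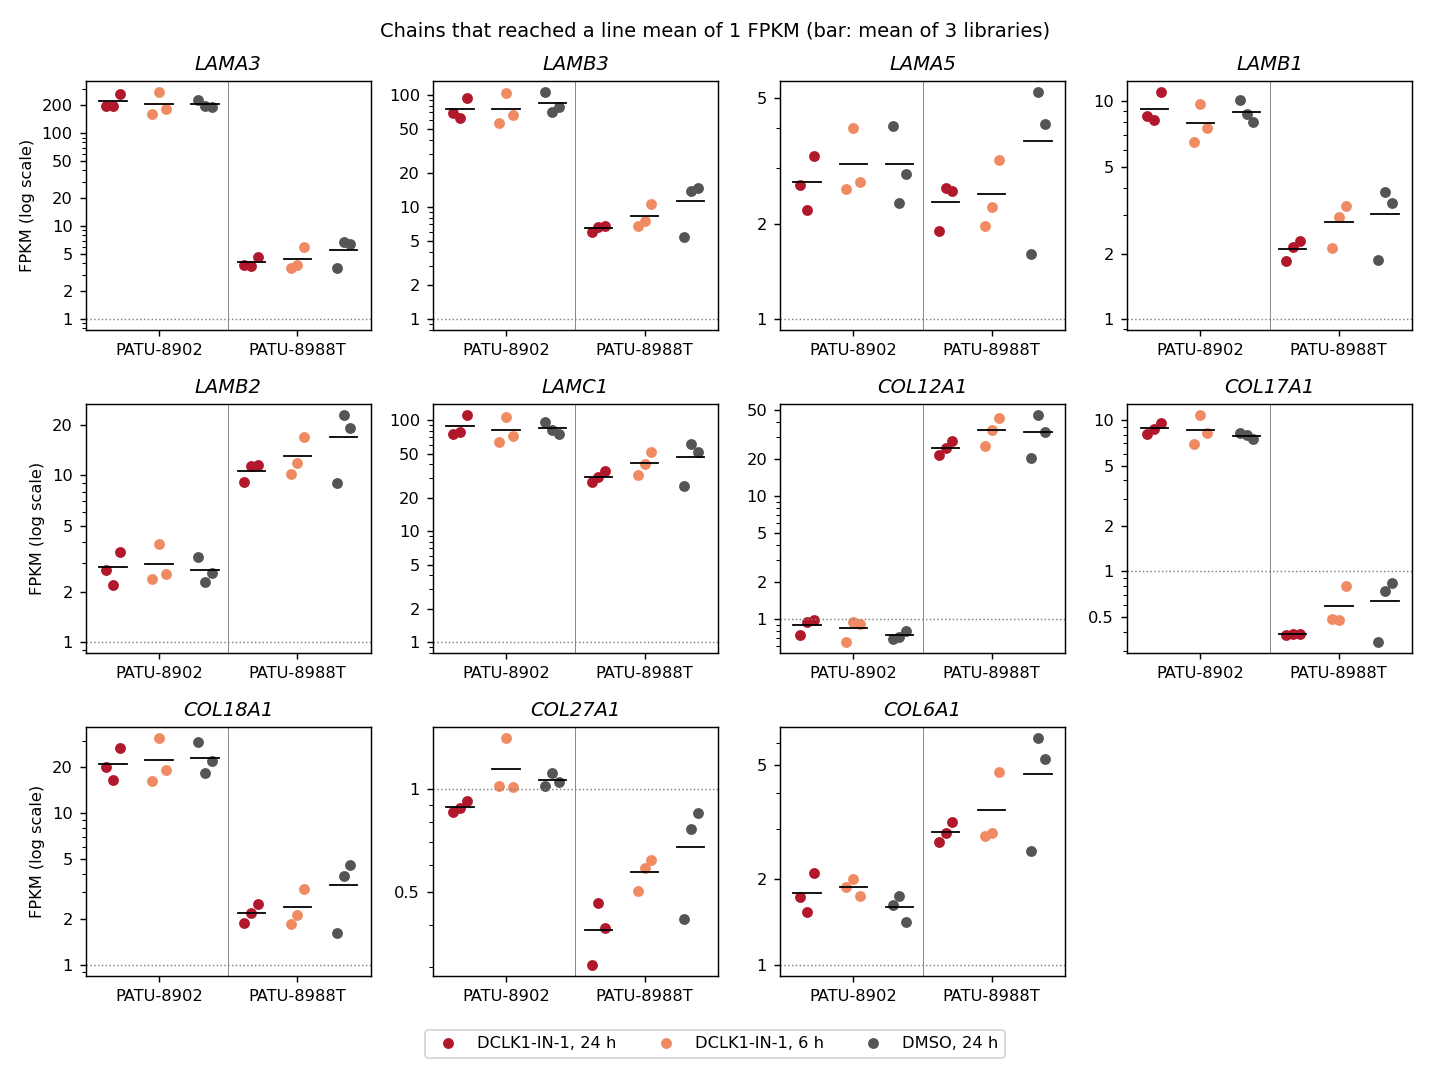
FPKM (log axis, its range set for each panel) of 11 chains that reached a line mean of 1 FPKM. Each point is a library, each bar the mean of 3 libraries and the dotted line 1 FPKM. PATU-8902 and PATU-8988T libraries do not overlap for 10 of the 11 genes, and LAMA5 is the exception. The share of all genes without overlap is not given here, and 77.2% of all tested genes passed between the lines over all conditions.

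Of the collagens, COL12A1 had the largest difference. Its values in PATU-8902 were 0.744, 0.945 and 0.988 FPKM at 24 h of inhibitor, 0.652, 0.954 and 0.922 FPKM at 6 h, and 0.692, 0.720 and 0.799 FPKM in DMSO. In PATU-8988T they were 21.7, 24.4 and 27.9 FPKM at 24 h, 25.4, 34.7 and 42.8 FPKM at 6 h, and 20.2, 45.3 and 33.3 FPKM in DMSO. All 9 PATU-8902 libraries were thus below 1 FPKM and all 9 PATU-8988T libraries above 20 FPKM. COL12A1 passed the filter only through PATU-8988T, so no p-value is given for it between the lines. Its log2 difference in DMSO was -4.22 ± 0.23, and -4.72 relative to the library median. By mean FPKM the level was 37.2-fold lower in PATU-8902.

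COL17A1, the hemidesmosome collagen, had an opposite distribution. It ran from 6.90 through 8.15 to 10.7 FPKM in PATU-8902 and from 0.342 through 0.480 to 0.838 FPKM in PATU-8988T. Its log2 difference in DMSO was 2.45 ± 0.17, given without a p-value because it passed the filter only through PATU-8902. COL18A1, a basement membrane collagen whose end fragment is endostatin, ran from 16.2 through 20.0 to 31.1 FPKM in PATU-8902 and from 1.62 through 2.20 to 4.54 FPKM in PATU-8988T (2.53 ± 0.29, limma adjusted p = 4.42e-07). COL6A1, a chain of the beaded filaments of type VI collagen, ran from 1.42 through 1.74 to 2.09 FPKM in PATU-8902 and from 2.50 through 2.89 to 6.21 FPKM in PATU-8988T (-1.06 ± 0.22, limma adjusted p = 4.18e-04). The other 4 type VI chains were below 1 FPKM in both lines. COL27A1 was not among the genes tested at a mean of 1 FPKM over all libraries. With the filter set in either line, it passed only through PATU-8902. Its log2 difference in DMSO was then 0.31 ± 0.12 as deposited and -0.18 ± 0.19 relative to the library median. COL27A1 lay near or below 1 FPKM in both lines, where centring of log2(FPKM + 1) can overcorrect. The sign relative to the library median is therefore not read as a direction.

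Within a library, ratios between chains do not depend on how libraries are scaled. LAMA3 and LAMB3 together made up 49.0 to 50.5% of the summed FPKM of all 56 chains in PATU-8902 libraries and 9.59 to 13.5% in PATU-8988T libraries. All laminins made up 92.4 to 93.7% in PATU-8902 and 60.6 to 66.3% in PATU-8988T. COL12A1 made up 0.103 to 0.183% in PATU-8902 and 21.3 to 29.2% in PATU-8988T. The summed level of the 56 chains had a median of 531 FPKM in PATU-8902 and 105 FPKM in PATU-8988T. For each of these quantities the lines did not overlap.

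The proportions of the laminin chains also differed. The ratio of LAMB2 to LAMB1 ran from 0.263 to 0.399 in PATU-8902 and from 4.03 to 5.98 in PATU-8988T. The ratio of LAMB3 to LAMB1 ran from 7.63 to 10.7 in PATU-8902 and from 2.57 to 4.29 in PATU-8988T. LAMA3 was 56.5 to 89.7 times LAMA5 in PATU-8902 and 1.30 to 2.19 times LAMA5 in PATU-8988T. LAMB3 stood at 0.317 to 0.461 of LAMA3 in PATU-8902 and at 1.46 to 2.29 in PATU-8988T. LAMA3 was therefore the higher of this pair in every PATU-8902 library, and LAMB3 in every PATU-8988T library. These are levels per transcript length, and a ratio close to 1 is no measure of how many trimers form.

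**Figure D3:**
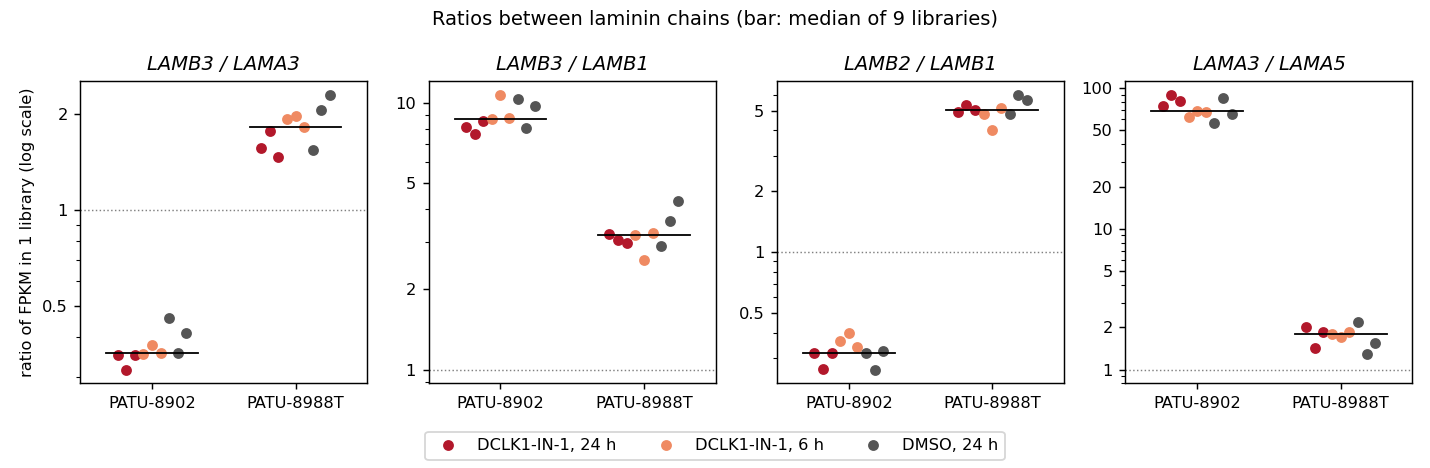
Ratios of FPKM between laminin chains within a library (log axis). Each point is a library coloured by treatment, the bar is the median of 9 libraries and the dotted line marks a ratio of 1. LAMB3 over LAMA3 has a median of 0.357 in PATU-8902 and 1.82 in PATU-8988T, and LAMB2 over LAMB1 has 0.317 in PATU-8902 and 5.05 in PATU-8988T.

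The inhibitor comparisons asked whether blocking DCLK1 moved these genes. In PATU-8902 no chain passed the test at 24 h, where 0.113% of all tested genes passed, or at 6 h, where 0.00871% passed. At 24 h the log2 differences of the 11 chains, inhibitor minus DMSO, ran from -0.16 for LAMB3 to 0.14 for COL17A1, with a median of 0.05 against 0.04 over all genes. At 6 h they ran from -0.19 for LAMB3 to 0.15 for COL6A1, with a median of -0.03 against -0.05 over all genes. The 95% intervals of the 11 chains lay within -0.82 and 0.67 at 24 h and within -0.85 and 0.65 at 6 h. No chain had an unadjusted p below 0.05, against 168 of all genes at 24 h and 79 at 6 h.

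LAMB3 shows the spread behind these values. In PATU-8902 it had 69.5, 63.0 and 94.4 FPKM at 24 h of inhibitor, 56.8, 105 and 65.8 FPKM at 6 h, and 106, 70.4 and 78.2 FPKM in DMSO. Each group held 1 library well above the other 2, and the groups overlapped. LAMA3 in the same line had 198, 199 and 267 FPKM at 24 h, 159, 276 and 184 FPKM at 6 h, and 229, 197 and 190 FPKM in DMSO. These groups also overlapped, with the highest library in the 6 h group.

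In PATU-8988T no chain passed at 24 h or at 6 h, where 0.0% of all genes passed in either comparison. The log2 differences of all 11 chains at 24 h were below 0, from -0.62 for LAMB3 to -0.23 for COL17A1, with a median of -0.37. The median of all genes was -0.35, and relative to the library median the chains ran from -0.27 to 0.12. The value of 0.12 was that of COL17A1, which lay below 1 FPKM in this line, where centring can overcorrect. COL6A1 was the 1 chain that had an unadjusted limma p below 0.05, against 687 of all genes. LAMB3 had 5.99, 6.57 and 6.83 FPKM at 24 h, 6.81, 7.56 and 10.7 FPKM at 6 h, and 5.42, 13.9 and 14.7 FPKM in DMSO. Of the DMSO libraries, replicate 1 was below all 3 of the 24 h libraries and the other 2 were above them.

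That 1 DMSO library decided the calls at 24 h in PATU-8988T. Without it, 8 chains passed as lower at 24 h as deposited, where 56.7% of all genes did, and 3 passed as lower relative to the library median (LAMB2, LAMB3 and LAMC1), where 21.3% of all genes did. LAMB2 then had a log2 difference of -0.92 as deposited (limma adjusted p = 0.0118) and -0.32 relative to the library median (limma adjusted p = 0.00971). LAMB3 had -1.04 as deposited (limma adjusted p = 0.0118) and -0.43 relative to the library median (limma adjusted p = 0.00872). The remaining pair of DMSO libraries was assumed to vary like the other groups.

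At 6 h in PATU-8988T, the log2 differences of 10 of 11 chains were below 0 and the exception was COL12A1, at 0.10. The median of the 11 was -0.26 against -0.04 over all genes. As deposited no chain had an unadjusted limma p below 0.05, against 287 of all genes. Relative to the library median the median difference was -0.24 against -0.03, with 0 of 11 chains past the threshold, where 0.0784% of all genes passed. On that scale 6 chains had an unadjusted p below 0.05, as did 3390 of all genes. LAMA3 had the smallest adjusted p, at -0.24 ± 0.06 (limma adjusted p = 0.0838), with 3.54, 3.85 and 5.90 FPKM at 6 h against 3.53, 6.76 and 6.41 FPKM in DMSO. LAMB2 stood at -0.29 ± 0.10 (limma adjusted p = 0.0978), with 10.2, 11.9 and 16.9 FPKM at 6 h against 9.0, 23.0 and 19.3 FPKM in DMSO. These FPKM values are as deposited, unlike the log2 differences beside them, and overlap relative to the library median is not given. As deposited both sets of groups overlapped, since DMSO replicate 1 lay below all 3 of the 6 h libraries. Without that library 6 chains (COL18A1, LAMA3, LAMA5, LAMB2, LAMB3 and LAMC1) passed as lower relative to the library median, where 23.7% of all genes did. As deposited none passed without it, where 0.0261% of all genes passed. The 6 h cells were set against vehicle cells of 24 h, so hours in culture and inhibitor cannot be told apart in this comparison.

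**Figure D4:**
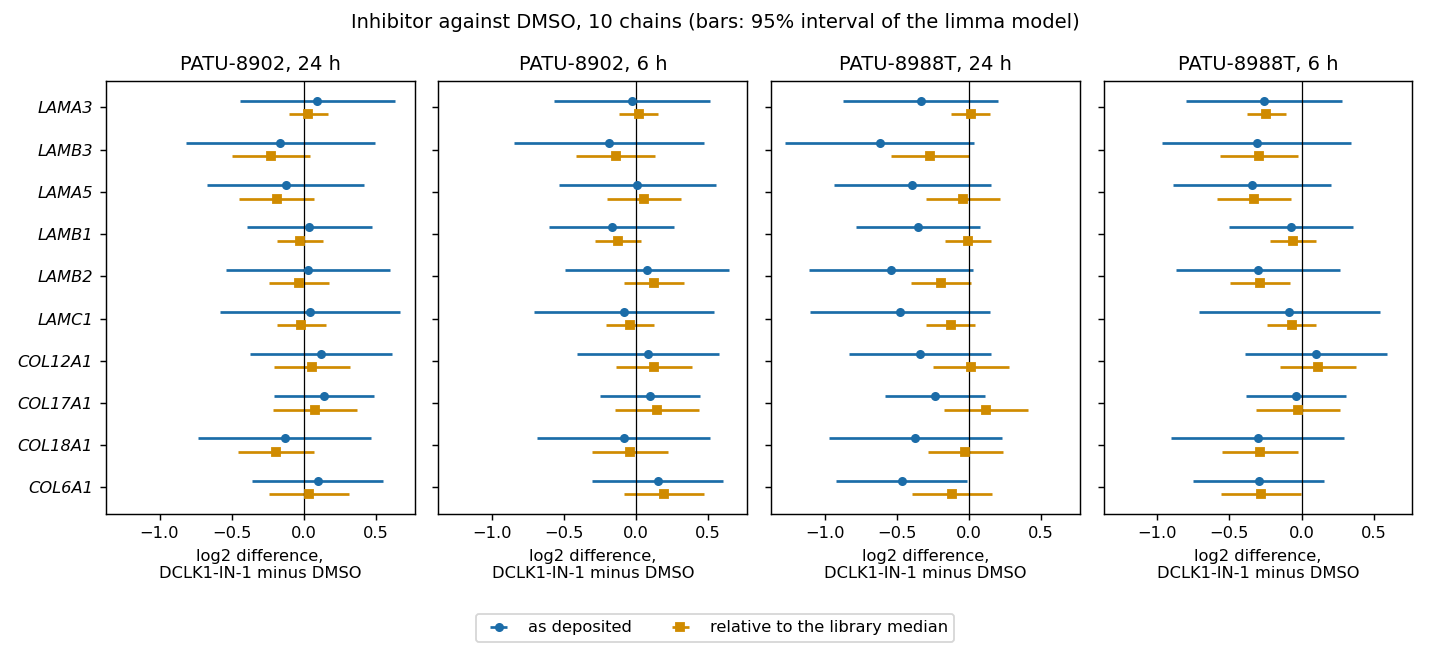
Log2 differences, DCLK1-IN-1 minus DMSO, of 10 tested chains in each line and time, with 95% intervals of the limma model. Circles are values as deposited and squares values relative to the library median. In PATU-8988T at 24 h all 10 circles lie below 0, between -0.62 and -0.23, and the squares lie between -0.27 and 0.12.

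COL27A1, a fibrillar collagen, lay near 1 FPKM in PATU-8902 and lower in PATU-8988T. In PATU-8902 it had 0.854, 0.881 and 0.921 FPKM at 24 h of inhibitor, 1.02, 1.41 and 1.01 FPKM at 6 h, and 1.02, 1.12 and 1.05 FPKM in DMSO. All 3 of the 24 h libraries lay below the other 6, but with the filter set in either line the log2 difference from DMSO was -0.13 ± 0.12 (limma adjusted p = 1.00). In PATU-8988T it had 0.305, 0.464 and 0.390 FPKM at 24 h and 0.415, 0.765 and 0.850 FPKM in DMSO, which overlapped, and the difference was -0.27 ± 0.12 (limma adjusted p = 0.342). This chain was singled out after its values were seen.

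Comparing 24 h with 6 h of inhibitor, no chain passed in PATU-8902 or in PATU-8988T, and 0.0% of all genes passed in either line. The log2 differences ran from -0.13 for LAMA5 to 0.21 for LAMB1 in PATU-8902 and from -0.44 for COL12A1 to -0.05 for LAMA5 in PATU-8988T, where the median was -0.21 against -0.32 over all genes. Relative to the library median the PATU-8988T differences ran from -0.10 to 0.29, and 9 of 11 were above 0. The difference between the lines of the inhibitor effect was tested directly. No chain passed at 24 h, where 0.00871% of all genes passed, or at 6 h, where 0.0% passed. As deposited no chain had an unadjusted limma p below 0.05 in these comparisons, against 197 of all genes between times in PATU-8902, 665 in PATU-8988T, and 281 at 24 h and 99 at 6 h for the difference between lines. Relative to the library median no chain passed in these comparisons either, where 0.244% of all genes passed between times in PATU-8902, 0.0% between times in PATU-8988T, 0.227% in the 24 h difference between lines and 0.0% in the 6 h difference. On that scale 3 chains (COL18A1, LAMA3 and LAMA5) had an unadjusted limma p below 0.05 between times in PATU-8988T, against 544 of all genes, and 4 chains (COL6A1, LAMA3, LAMA5 and LAMB2) in the 6 h difference between lines, against 1385 of all genes. In the other 2 comparisons none did, against 981 of all genes between times in PATU-8902 and 551 in the 24 h difference. At 24 h these differences, PATU-8902 minus PATU-8988T, ran from 0.24 for COL18A1 to 0.57 for LAMB2 with a median of 0.43 against 0.39 over all genes, and relative to the library median from -0.17 to 0.16. At 6 h they ran from -0.10 for LAMB1 to 0.44 for COL6A1. A chain that misses the threshold is not shown to be unaffected, and the intervals at 24 h in PATU-8988T reached -1.28 on the log2 scale.

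Genes that assemble, modify and bind these chains were compared between the lines in DMSO relative to the library median. On that scale 72.2% of all tested genes passed, 34.4% as higher in PATU-8902 and 37.8% as lower, and as deposited 41.8% passed as higher and 12.4% as lower. The counts of the 5 lists stand beside these shares as descriptions and set no list apart from other genes. Several list genes passed the filter only through the line in which they were high, so their levels are given without p-values. Of 6 tested partners in basement membranes, 4 were higher in PATU-8902 and 1 was lower, with NID1 and FRAS1 below 1 FPKM in PATU-8988T. NTN4, a netrin that binds laminin gamma chains, had means of 144 FPKM in PATU-8902 and 1.23 FPKM in PATU-8988T (log2 difference 5.46 ± 0.11, limma adjusted p = 5.67e-16). NID1, the nidogen that links laminin to type IV collagen, had 18.1 FPKM in PATU-8902 and 0.0782 FPKM in PATU-8988T. AGRN, the proteoglycan agrin, which binds LAMC1-containing laminins, was lower (-1.90 ± 0.13, limma adjusted p = 1.76e-09).

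Of 9 tested laminin receptor genes, 5 were higher in PATU-8902 and 3 lower, where 34.4% and 37.8% of all genes were, and as deposited the split was 5 and 1, where 41.8% and 12.4% of all genes passed. ITGA6 and ITGB4, which encode the integrin subunits that hold laminin-332, had means of 636 and 112 FPKM in PATU-8902 and of 56.9 and 4.09 FPKM in PATU-8988T, with log2 differences of 2.93 ± 0.08 and 3.80 ± 0.11. BCAM, a receptor for LAMA5, was higher by 2.37 ± 0.13. ITGA3, the partner of ITGB1 in the other laminin-332 integrin, was lower, at -1.05 ± 0.15. As deposited ITGA3 had no call, at -0.55 ± 0.36 (limma adjusted p = 0.202). DAG1, which encodes dystroglycan, was also lower, at -1.34 ± 0.11. Of 5 tested collagen receptor genes, 2 were higher and 1 lower, where 34.4% and 37.8% of all genes were. As deposited the split was 3 and 1, where 41.8% and 12.4% of all genes passed. MRC2, the lower one, was below 1 FPKM in PATU-8902, and the kinase gene DDR1 was higher by 2.08 ± 0.10.

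Of 16 tested genes for collagen folding and export, 6 were higher in PATU-8902 and 6 lower, close to the shares of all genes (34.4% and 37.8%), and as deposited the split was 6 and 2. PLOD2 and FKBP10 were each below 1 FPKM in 1 line. PLOD2, the lysyl hydroxylase that acts on collagen telopeptides, had means of 0.155 FPKM in PATU-8902 and 224 FPKM in PATU-8988T. FKBP10, a chaperone that works with that enzyme, lay the other way, with 9.90 FPKM in PATU-8902 and 0.350 FPKM in PATU-8988T. SERPINH1, the collagen chaperone HSP47, was higher in PATU-8902 by 0.53 ± 0.11.

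Of 7 tested genes for collagen processing, crosslinking and degradation, 3 were higher in PATU-8902 and 3 lower, where 34.4% and 37.8% of all genes were, and as deposited the split was 4 and 2. LOXL1, LOXL2, LOXL4 and MMP14, 4 of the 6 with a call, were each below 1 FPKM in 1 line. The lysyl oxidase gene LOXL2 had means of 0.481 FPKM in PATU-8902 and 71.2 FPKM in PATU-8988T, and LOXL1 of the same family had 11.9 FPKM in PATU-8902 and 0.105 FPKM in PATU-8988T. MMP14, a membrane-bound protease that cuts collagen, had 51.6 FPKM in PATU-8902 and 0.0926 FPKM in PATU-8988T. No gene of these 5 lists passed in an inhibitor, time or interaction comparison as deposited.

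**Figure D5:**
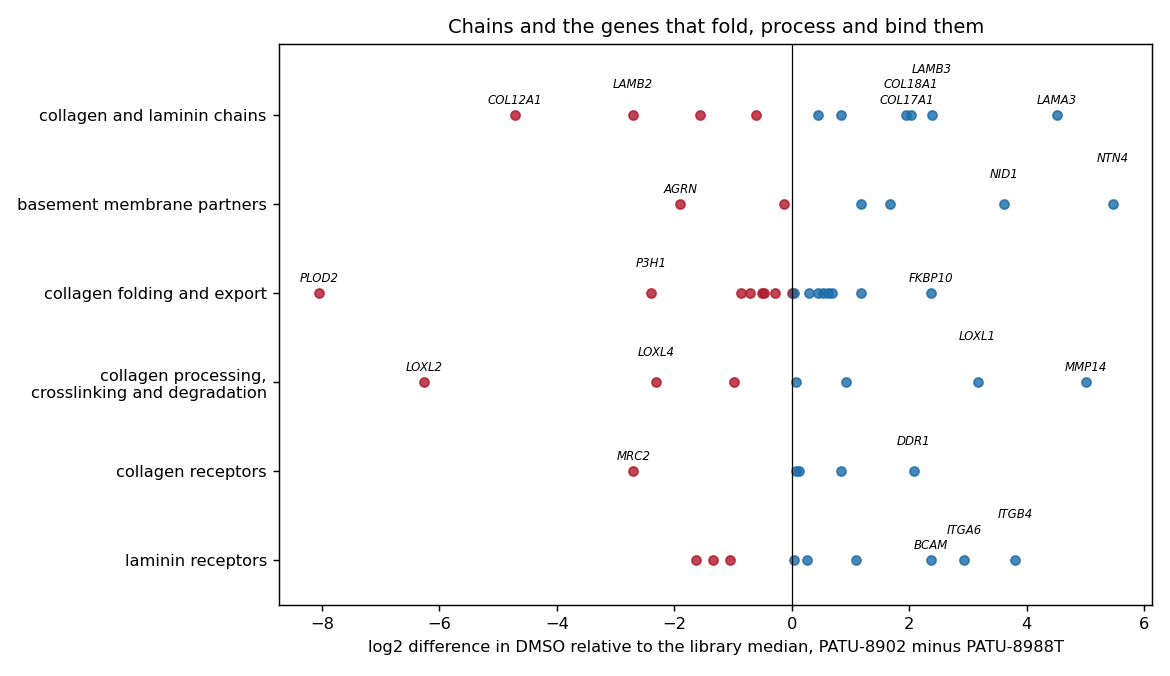
Log2 differences in DMSO relative to the library median, PATU-8902 minus PATU-8988T, for 10 tested chains and for tested genes of 5 lists of partner genes. Each point is a gene, blue when higher and red when lower in PATU-8902, and genes beyond 1.9 in size are named. Points lie on both sides of 0 in every row, with PLOD2 at -8.05 and NTN4 at 5.46 the farthest out.

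Markers of cell state moved with the lines, and their part in the chain differences was not tested. All 7 epithelial markers had higher means in PATU-8902, with a summed level of 2905 to 5344 FPKM in PATU-8902 and 381 to 973 FPKM in PATU-8988T. KRT8 and KRT18 were abundant in both lines, but KRT19, KRT7, CDH1 and CLDN4 had means of at most 0.170 FPKM in PATU-8988T. Of 5 mesenchymal state genes, 4 were tested and all 4 had lower means in PATU-8902, with a summed level of 6.75 to 11.4 FPKM in PATU-8902 and 151 to 313 FPKM in PATU-8988T. The fibroblast genes DCN, LUM, PDGFRA, PDGFRB, THY1 and FAP had means of at most 0.156 FPKM in PATU-8902 and 0.120 FPKM in PATU-8988T, whereas POSTN had a mean of 0.122 FPKM in PATU-8902 and 1.35 FPKM in PATU-8988T. The list of 8 fibroblast and stellate cell markers summed to 10.7 to 17.8 FPKM in PATU-8902 and 7.54 to 16.7 FPKM in PATU-8988T, mostly from ACTA2. Endothelial markers summed to at most 0.983 FPKM in PATU-8902 and 0.792 FPKM in PATU-8988T. The 5 leukocyte markers summed to 10.3 to 17.6 FPKM in PATU-8902 and 3.91 to 10.3 FPKM in PATU-8988T, mostly from CD68, with PTPRC and CD3E at means of at most 0.161 FPKM in either line.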

How the data were processed

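Polyadenylated RNA with ERCC spike-in controls added to RNA normalised by cell count was sequenced, per the labels' protocols. The authors deposited FPKM values for 26341 rows, of which 92 were spike-ins. HISAT, Cufflinks, Cuffnorm and the build hg19 are named in the submitters' processing notes, and their versions are not given in the sources used here. Many rows of a library shared 1 low value (equal within 1e-06), which lay from 0.0795 to 0.118 FPKM, and the lowest value of a library lay from 0.0614 to 0.116 FPKM. Genes carried no coordinates. The sources used here do not say if reads were counted by strand, so antisense partners cannot be told apart.

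Values were analysed as log2(FPKM + 1), which understates changes of low genes. Centring takes the full shift of the library median from such genes too, so near or below 1 FPKM it can overcorrect them. All 11477 genes whose average over 18 libraries reached 1 FPKM entered 1 limma fit (version 3.58.1, R 4.3.3) of 6 group means with a mean-variance trend and 12 residual degrees of freedom. It was tested on simulated data with known changes. The 10 comparisons were 2-sided, adjusted by Benjamini-Hochberg over all tested genes and called below 0.05. SE is the model's standard error, and intervals are at 95%. Of the 56 chains, 11 passed the filter. Alternatives were median-centring (every library given the same median log2 value), a smaller pseudocount of 0.1, a filter of 1 FPKM in either line (12048 genes) or none, rescaling by 47 spike-ins, the compared groups alone, a replicate block and each library left out. As deposited, the spike-ins of a library deviated on average by -0.06 to 0.05 on the log2 scale. Rescaling by them therefore changed the values little and is close to the fit as deposited. Values as deposited were thus level with the spike-ins. Centring would also remove a real difference in RNA per cell between libraries, and this was not tested. Centring combined with other choices was added after seeing the data.

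The members and gene lists were chosen with earlier results of these data known. Chains were named by symbol, expressed ones with values and the rest by range, and list genes where they passed or, in lists with no call, by level. Promoter windows came from RefSeq for 41 of the 56 chains. Values of 1 chain and 1 marker are not reported here, although counts over the chains include all of them.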

Additional observations from a re-analysis of the deposited data

Results flagged for a closer look

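COL12A1 and COL17A1 at 24 h were singled out because every 24 h inhibitor library of PATU-8902 lay above the DMSO mean of that line while every 24 h inhibitor library of PATU-8988T lay below the DMSO mean of its line. For COL12A1 the difference between the lines of the 24 h effect was 0.46 on the log2 scale (limma adjusted p = 0.547). In PATU-8902 all of its values were below 1 FPKM, at 0.744 to 0.988 FPKM with inhibitor and 0.692 to 0.799 FPKM in DMSO. In PATU-8988T they were 21.7 to 27.9 FPKM with inhibitor and 20.2 to 45.3 FPKM in DMSO, and the DMSO libraries lay on both sides of the inhibitor libraries. For COL17A1 the difference was 0.37 (limma adjusted p = 0.547), with 8.08 to 9.54 FPKM with inhibitor and 7.54 to 8.15 FPKM in DMSO in PATU-8902, and 0.379 to 0.387 FPKM with inhibitor and 0.342 to 0.838 FPKM in DMSO in PATU-8988T. Relative to the library median these differences were 0.05 for COL12A1 and -0.04 for COL17A1. Each chain was below 1 FPKM in 1 line, where log2(FPKM + 1) understates changes while centring removes the full shift of the library. The centred values are therefore not read as an absence of a difference. Neither difference passed the test on either scale, and the overall level of the PATU-8988T libraries moved with both.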

How the results depend on the processing

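Between the lines, 10 of 11 chains passed in DMSO and over all conditions. These counts were 9 to 11 under every alternative apart from no filter, which tests all 56 chains and called 22 in DMSO, where 29.0% of all genes passed, and 42 over all conditions, where 77.3% did. The 56 chains include 6 that lay at the shared low value in all 18 libraries. LAMC1 in DMSO lost its call when the compared groups were fitted alone. With libraries left out in turn, as deposited or centred, 0 to 8 chains passed at 24 h and 0 to 6 at 6 h in PATU-8988T, and 0 to 2 (LAMA5 and LAMB2) in the 6 h difference between lines. The non-zero counts came without PATU-8988T DMSO replicate 1, and the other inhibitor and time counts were 0 under every alternative run.

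Median-centring turned the sign of COL17A1 at 24 h in PATU-8988T (0.12, and 0.12 with the filter in either line), LAMA5 for 24 h against 6 h in PATU-8988T (0.29 and 0.27), COL18A1 in the 24 h difference between lines (-0.17 and -0.16) and LAMA5 between lines over all conditions (-0.54 and -0.53, with a call). COL17A1 lay below 1 FPKM in PATU-8988T, where centring of log2(FPKM + 1) can overcorrect. Its turn of sign is therefore not read as a change of direction. Leaving out libraries on either scale gave ranges on both sides of 0. In PATU-8988T these were -0.20 to 0.36 for COL12A1 at 6 h, -0.37 to 0.23 for COL17A1 at 24 h and -0.15 to 0.34 for LAMA5 between times. In PATU-8902 they were -0.0058 to 0.19 for COL17A1 and -0.33 to 0.0068 for LAMB3 at 24 h, and -0.30 to 0.0185 for LAMA5 between times. Between the lines they were -0.73 to 0.14 for LAMA5 in DMSO, -0.58 to 0.17 for LAMA5 over all conditions, -0.31 to 0.57 for COL18A1 in the 24 h effect and -0.25 to 0.13 for LAMB1 in the 6 h effect. The cause was not tested.

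Replicates with the same number did not deviate together (r from -0.22 to 0.14), so the numbers are not taken as pairs. With the replicate block, 10 chains passed between the lines and 0 in each inhibitor comparison. With 3 libraries per group and unknown depth, small changes of low chains could not be resolved.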
